A study of Homo sapiens with 12 samples.

Results

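The 10 genes described here are the G1 and S phase cyclins CCND1, CCND2, CCND3, CCNE1, CCNE2, CCNA1, and CCNA2 and their kinases CDK4, CDK6, and CDK2. They were chosen by name, from their known place in the cell cycle, out of 25369 genes with counts. Earlier results of these data were known when they and the related gene lists were chosen. Counts of members or listed genes set beside shares of all genes are thus a description. A gene entered the test when its counts passed a filter on low values, and 9 of the 10 did so, against 16625 of the 25369. CCNA1 did not pass.

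The cells were U2OS, which derive from a human osteosarcoma, and carried the Tet-On system, in which doxycycline turns on a gene placed behind a responsive promoter. There were 4 stable cell lines with 3 biological replicates each. They carried the empty pTRE vector, wild-type (WT) E2F1, or E2F1 in which lysine replaced arginine, either at a site of the methyltransferase PRMT1 (R109K) or at both sites of PRMT5 (KK). Cells of all 4 lines, pTRE included, were kept in G418 and hygromycin B and received 1 ug/ml doxycycline for 24 hours before polyadenylated RNA was sequenced. Each construct was represented by 1 stable line. Whether a line was a clone or a pool is not given in the sources used here, so the effect of an E2F1 protein and any other difference between lines cannot be told apart. In bulk RNA, a change in the share of cells in a cell cycle phase and a change in RNA per cell cannot be told apart either.

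E2F1 is a transcription factor held in check by the retinoblastoma protein RB1. D-type cyclins activate CDK4 and CDK6, which phosphorylate RB1 and release E2F. Freed E2F activates the genes of E-type cyclins, which drive CDK2 into S phase, and A-type cyclins then take over CDK2 as DNA replication proceeds. CCNE1, CCNE2, and CCNA2 are textbook E2F targets, whereas transcription of the D-type cyclins is known chiefly for its response to growth factor signals.

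E2F1 mRNA, which cannot be divided here into endogenous and introduced copies, was measured first. In CPM (read counts scaled to a common library size by TMM), the pTRE samples lay between 82.9 and 101. Those of WT lay between 1469 and 2315, those of R109K between 932 and 1283, and those of KK between 1112 and 1478. The log2 fold change against pTRE was 4.31 in WT, 3.67 in R109K, and 3.85 in KK, with edgeR adjusted p-values of 3.62e-09, 1.52e-08, and 4.75e-09. R109K held less E2F1 mRNA than WT on average, with a log2 fold change of -0.65 that did not pass the test (SE 0.18, edgeR adjusted p = 0.0577). The libraries held 21366887 to 31040903 reads on genes, apart from WT replicate 2, which held 11500537, with 58.7% of its reads outside annotated features. That share was 23.6% to 29.6% in the other libraries. In all, WT replicate 2 had 36828087 reads, more than the 34999792 of KK replicate 2. The members took 0.110% to 0.153% of gene reads. Of the osteosarcoma and mesenchymal markers, VIM (1554 CPM), COL1A1 (3557 CPM), and SPARC (1613 CPM) were high in pTRE and RUNX2 was at 17.0 CPM, whereas COL1A2 stayed at 0.290 CPM and ALPL at 1.18 CPM. The sum of the 6 markers was 6128 to 7391 CPM with the empty vector and 2171 to 3383 CPM in the E2F1 lines, where COL1A1 and SPARC fell, and the part of this shift in the cyclin results was not tested. The labels also call the line epithelial. KRT8 (503 CPM) and KRT18 (288 CPM) were present in pTRE, EPCAM was at 12.3 CPM, CDH1 was at 1.38 CPM, and KRT19 was at 0. KRT8 fell in all 3 E2F1 lines, by 1.08, 0.74, and 0.91 on the log2 scale in WT, R109K, and KK, and the 5 epithelial markers summed to 744 to 919 CPM in pTRE and to 365 to 659 CPM in the E2F1 lines, a shift whose part in the cyclin results was likewise not tested. Leukocyte and endothelial markers summed to at most 1.07 CPM in any sample.

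Sequence just upstream of a gene's start was read for the members whose results differ most in kind. The RefSeq promoter table held windows for CCNA1, CCNA2, CCND3, CCNE1, CDK4, and CDK6, and none for CCND1, CCND2, CCNE2, and CDK2. The 250 bases before the start are shown for CCNE1, which was regulated over 2-fold, for CCNA2, which moved less, and for the CCND3 window that holds the searched word. Each lies in no annotated exon of its own gene in GRCh37 (hg19), and exons of other genes were not checked. The CCND3 window lies within the span of the CCND3 gene. They are written 5′ to 3′ on the strand of the gene, with the letters TCCCGC, the core of the classical E2F site, in capitals where they occur on either strand (GCGGGA on the other).
CCNE1, chr19:30302648-30302897, plus strand: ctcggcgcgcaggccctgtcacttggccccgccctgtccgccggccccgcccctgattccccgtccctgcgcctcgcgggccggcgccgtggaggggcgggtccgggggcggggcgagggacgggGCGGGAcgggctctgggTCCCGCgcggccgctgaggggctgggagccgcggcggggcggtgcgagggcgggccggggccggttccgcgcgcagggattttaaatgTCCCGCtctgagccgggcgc
CCNA2, chr4:122745039-122745288, minus strand: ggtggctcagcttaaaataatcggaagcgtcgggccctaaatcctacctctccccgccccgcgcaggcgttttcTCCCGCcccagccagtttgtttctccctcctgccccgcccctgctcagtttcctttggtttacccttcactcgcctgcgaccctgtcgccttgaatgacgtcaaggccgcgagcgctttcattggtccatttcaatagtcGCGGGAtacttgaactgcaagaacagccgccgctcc
CCND3, chr6:41909547-41909796, minus strand: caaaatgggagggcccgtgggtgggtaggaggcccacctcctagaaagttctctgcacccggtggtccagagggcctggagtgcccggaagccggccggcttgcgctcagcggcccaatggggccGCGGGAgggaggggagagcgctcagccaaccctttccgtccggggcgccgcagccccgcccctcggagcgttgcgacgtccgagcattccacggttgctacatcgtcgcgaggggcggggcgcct
CCNE1 held 3 copies of the core, at positions -125, -108, and -20 from its start, CCNA2 held 2 at -176 and -36, and CCND3 held 1 at -125. CDK6, which was called in no line, also held 1, at position 7 after its start. CCNA1, CDK4, and the other windows of CCND3 and CDK6 held none. Among all 35116 RefSeq windows, which run from 250 bases before to 50 after a start, 26.9% held at least 1 copy. Counted by gene, 30.4% of 27305 genes had such a window. The core was chosen after the windows had been read, since the longer E2F words TTTCCCGC, TTTCGCGC, TTTGGCGC, and TTTGCCGC occurred in none of the members' windows and in 3.31% of all windows. The last 7 letters of these words were searched too, and occurred in none of the members' windows and in 13% of all windows. Of the cell cycle homology word, only the form TTTGAA was searched. That form was in 15.2% of all windows and in none of the members' windows. A match or its absence concerns these letters in these windows and is a description.

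The first comparison asked how each cyclin and CDK mRNA differed between an E2F1 line and the empty vector line. CCND3, CCNE1, and CCNE2 were up-regulated about 3 to 5-fold in all 3 E2F1 lines, CCND1 fell by less than 2-fold in all 3, and the kinase mRNAs did not pass the test in any line. A gene is said to rise or fall at an edgeR adjusted p under 0.01, and to be regulated where the change was also over 2-fold. In WT, 4 of the 9 tested members were called, where 26.2% of all genes tested were. Of these 3 rose and 1 fell, beside 14.8% and 11.4% of all genes. In R109K, 5 were called (17.3% of all genes), of which 4 rose (10.0%) and 1 fell (7.23%). In KK, 6 were called (24.4%), of which 4 rose (13.8%) and 2 fell (10.7%). Samples did not overlap with pTRE for 7, 6, and 7 of the 9 members, beside 51.5%, 47.2%, and 49.4% of all genes. The 3 regulated members were the same in each line and were up-regulated, against 7.89%, 4.64%, and 7.01% of all genes in WT, R109K, and KK. The median log2 fold change over the 9 members was 0.05 in WT, 0.31 in R109K, and 0.07 in KK, and that over all genes was between -0.01 and 0.00. The 3 comparisons share the pTRE samples.

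**Figure D1:**
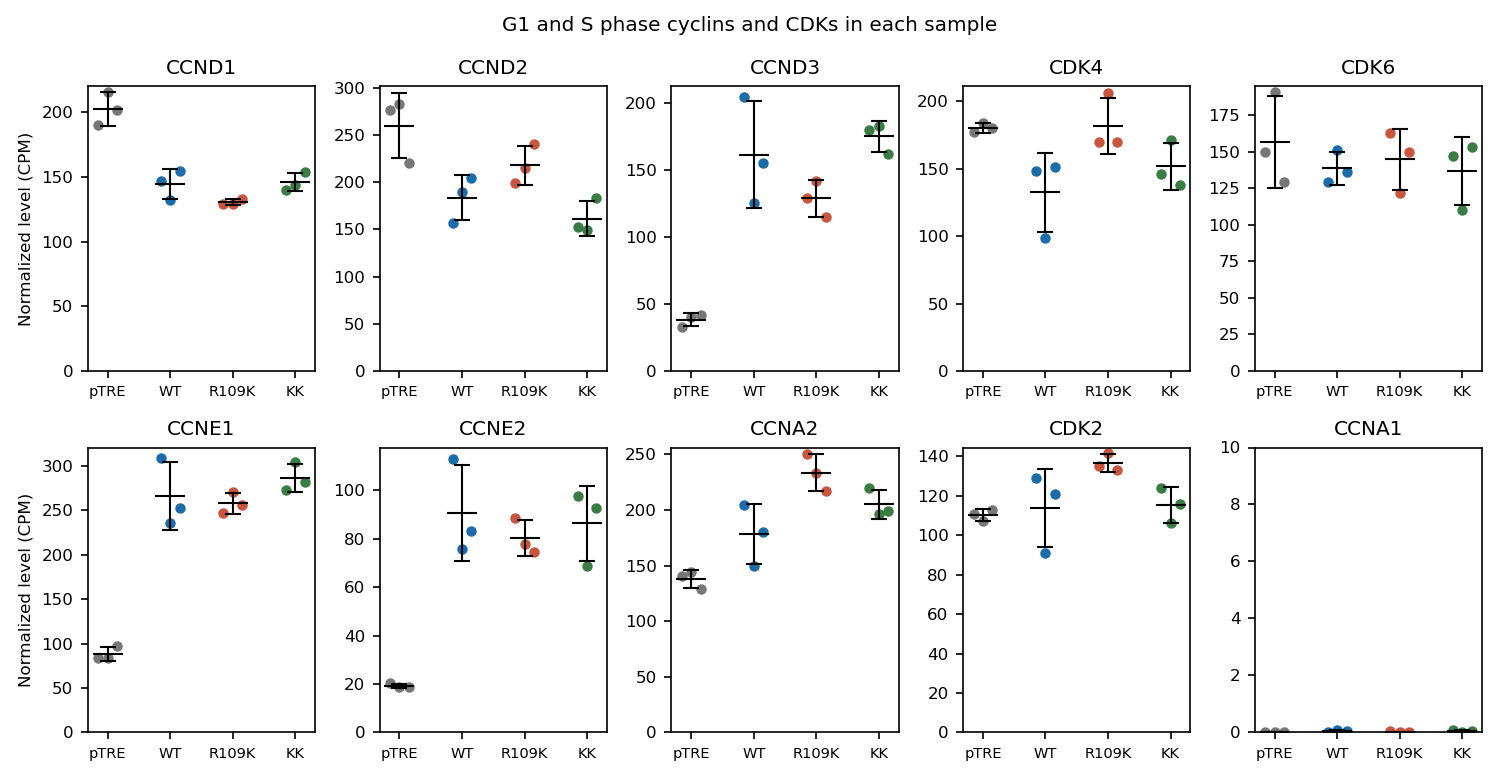
Level of each of the 10 mRNAs in every sample, in TMM-normalized CPM on axes that start at 0, for the pTRE, WT, R109K, and KK lines. Points are samples and bars are the mean and SD of 3 replicates. CCND3, CCNE1, and CCNE2 sit far above pTRE in all E2F1 samples, CCND1 sits below, and CCNA1 is at or near 0 throughout.

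**Figure D2:**
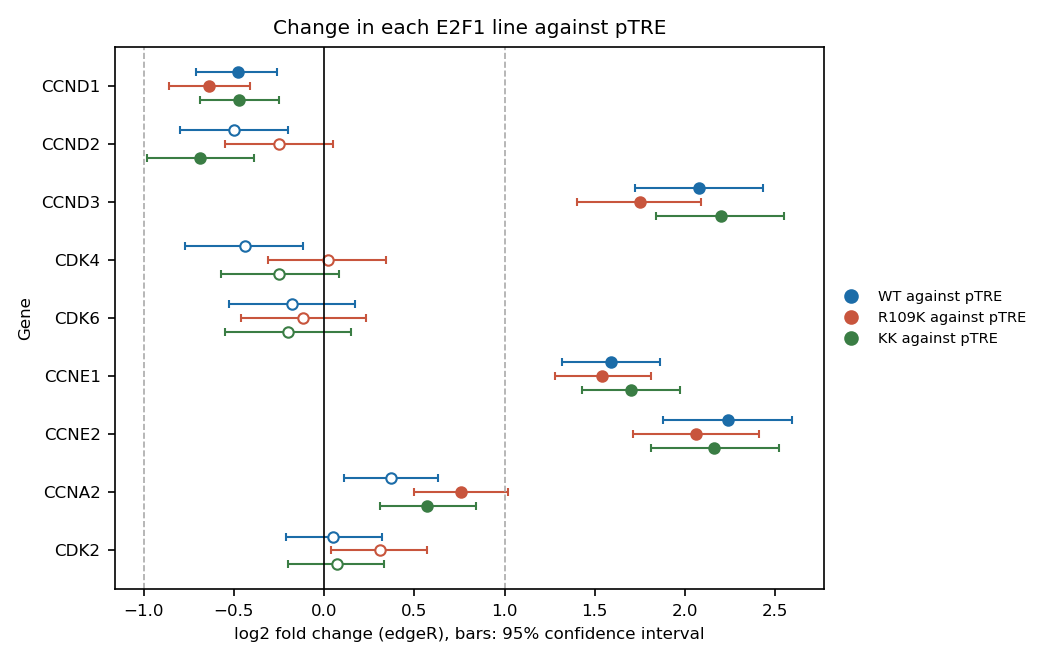
log2 fold change of the 9 tested members in each E2F1 line against pTRE, with 95% confidence intervals from edgeR. Filled points passed an adjusted p of 0.01, open points did not, and dashed lines mark 2-fold. Only CCND3, CCNE1, and CCNE2 lie beyond the 2-fold line.

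Among the D-type cyclins, which sense growth signals and start the phosphorylation of RB1, CCND3 stood apart from its paralogues. CCND3 (chromosome 6, 41902672 to 42018095) was measured at 33.1, 40.0, and 41.8 CPM in pTRE. It reached 204, 125, and 155 CPM in WT, 129, 142, and 115 in R109K, and 180, 183, and 162 in KK. Every E2F1 sample was above every pTRE sample. The mean was 38.3 ± 4.60 CPM (SD, n = 3) in pTRE, beside 161 ± 39.6, 129 ± 13.7, and 175 ± 11.5 CPM with WT, R109K, and KK E2F1. The log2 fold changes were 2.08 (SE 0.16) in WT, 1.75 (SE 0.16) in R109K, and 2.20 (SE 0.17) in KK, with edgeR adjusted p-values of 2.09e-07, 1.86e-06, and 1.24e-07. By size, it was 450th among the 2464 genes that rose in WT, 326th of 1666 in R109K, and 348th of 2287 in KK.

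CCND1 (chromosome 11, 69455924 to 69469242), the cyclin D gene amplified or overexpressed in many tumours, moved the other way. It was at 190, 216, and 202 CPM in pTRE, at 147, 132, and 155 in WT, at 129, 129, and 133 in R109K, and at 140, 144, and 154 in KK. All 9 E2F1 samples lay below all pTRE samples. CCND1 fell by 0.48 on the log2 scale in WT (SE 0.10, edgeR adjusted p = 0.00202), by 0.64 in R109K (SE 0.11, adjusted p = 3.45e-04), and by 0.47 in KK (SE 0.10, adjusted p = 0.00241). Without pTRE replicate 2, its highest sample, the edgeR adjusted p was 0.0139 in WT, 0.00349 in R109K, and 0.0174 in KK. In WT it was also 0.0148 when only the 6 samples compared were fitted, and in KK it was 0.0162 without KK replicate 1.

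CCND2 (chromosome 12, 4378937 to 4414519) was called in KK alone. Its samples were at 276, 283, and 220 CPM in pTRE, 157, 189, and 204 in WT, 199, 215, and 240 in R109K, and 152, 149, and 183 in KK. The WT and KK samples lay below all pTRE samples, and those of R109K overlapped them. CCND2 fell by 0.69 on the log2 scale in KK (SE 0.14, edgeR adjusted p = 0.00127). The log2 fold change of -0.50 in WT (SE 0.14) narrowly missed the threshold at an edgeR adjusted p of 0.0103. The change passed with DESeq2 (0.00174), with no filter on low counts (0.00802), and without pTRE replicate 3 (0.00611) or WT replicate 3 (0.00746). Without WT replicate 1 the edgeR adjusted p was 0.0487, the highest of the settings tried. Over the replicates left out, the WT log2 fold change ran from -0.61 to -0.41. In R109K the log2 fold change was -0.25 (95% interval -0.55 to 0.05).

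To compare paralogues, CPM was divided by the length of the union of a gene's annotated exons. In pTRE, CCND1 made up 52.1% ± 2.61 (SD, n = 3) of the D-type cyclin level per kb, CCND2 39.7% ± 3.74, and CCND3 8.16% ± 1.13. The share of CCND3 was 34.1% ± 6.13 in WT, 29.0% ± 3.02 in R109K, and 37.5% ± 3.25 in KK, beside a CCND1 share of 37.4%, 35.6%, and 37.7%. In pTRE the D-type pool was made mostly of CCND1 and CCND2, and in the E2F1 lines the 3 genes stood at nearer levels. With the shorter MANE Select transcript lengths, the share of CCND3 was 17.7% in pTRE and 55.5%, 49.6%, and 59.3% in WT, R109K, and KK, so its rise held and its size relative to CCND1 depended on the length used. The summed level per kb was 81.7 ± 5.36 CPM in pTRE, 81.4 ± 7.18 in WT, 77.0 ± 2.30 in R109K, and 81.3 ± 1.90 in KK by exon union, and 107, 142, 128, and 146 by MANE Select. Whether the sum differed between lines thus turns on the transcript lengths assumed.

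**Figure D3:**
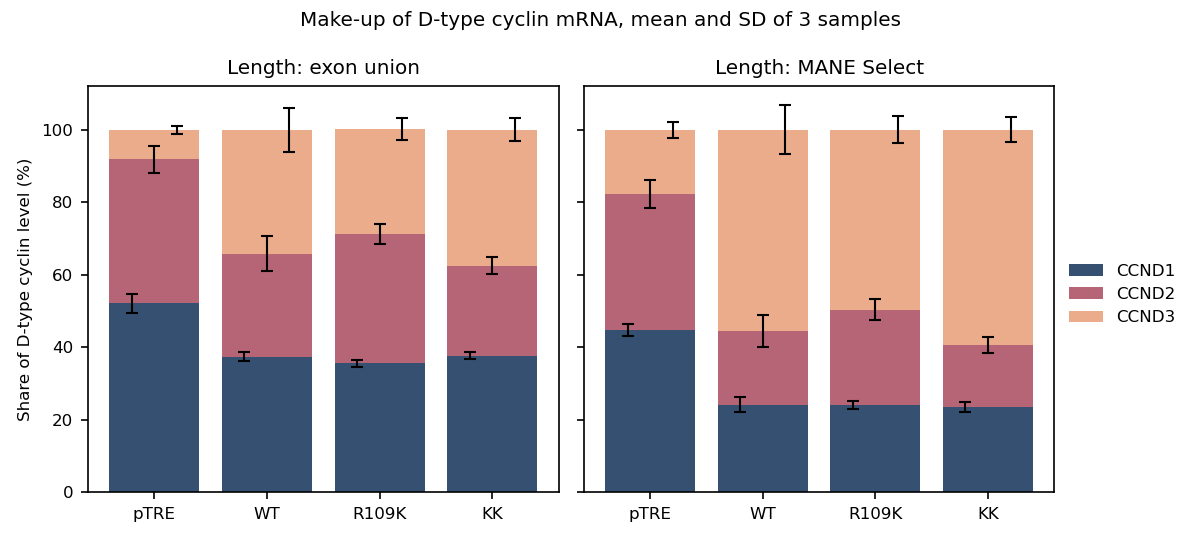
Share of CCND1, CCND2, and CCND3 in the summed D-type cyclin level per kb in each line, as stacked bars with the SD of 3 replicates, using exon union lengths (left) or MANE Select lengths (right). The CCND3 segment grows from 8.16% in pTRE to between 29.0% and 37.5% on the left, and from 17.7% to between 49.6% and 59.3% on the right.

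The balance of CCND3 over CCND1, as a log2 ratio per kb within a sample, averaged -2.68 ± 0.13 (SD, n = 3) in pTRE, -0.15 ± 0.30 in WT, -0.30 ± 0.18 in R109K, and -0.01 ± 0.17 in KK. No E2F1 sample overlapped pTRE, and each 2-sided exact permutation test gave p = 0.10, the smallest that 3 samples against 3 allow. The CCND2 over CCND1 ratio averaged -0.40 ± 0.21 in pTRE, -0.41 ± 0.21 in WT, -0.01 ± 0.11 in R109K, and -0.61 ± 0.10 in KK. The R109K samples lay above every sample of the other lines, at differences of 0.39 to pTRE, 0.40 to WT, and 0.60 to KK, each with an exact permutation p of 0.10. Over the 24 ratio tests made, p = 0.10 became 0.30 after Benjamini-Hochberg adjustment of the exact permutation tests, so none could pass.

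CDK4 and CDK6, the partners of the D-type cyclins, showed no called change. CDK4 (chromosome 12, 58141510 to 58149796) was at 177, 184, and 180 CPM in pTRE, 148, 98.8, and 151 in WT, 170, 206, and 170 in R109K, and 146, 171, and 138 in KK. WT and KK samples lay below pTRE, and R109K samples fell on both sides of it. The log2 fold change was -0.44 in WT (SE 0.15, edgeR adjusted p = 0.0305), 0.02 in R109K (95% interval -0.31 to 0.34), and -0.25 in KK (-0.57 to 0.08). The lowest value came from WT replicate 2, the library with the fewest reads on genes, and without it the WT log2 fold change was -0.27. The annotation places 1369 exonic bases of TSPAN31 on the opposite strand of CDK4, and the strand setting of the counting is not given. TSPAN31 averaged 24.2 CPM in pTRE and fell in all 3 lines, by 0.72, 0.46, and 0.67 on the log2 scale in WT, R109K, and KK.

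CDK6 (chromosome 7, 92234235 to 92465887) was at 150, 191, and 129 CPM in pTRE, and the E2F1 samples ranged from 110 to 163. All groups overlapped. Its log2 fold changes were -0.18, -0.12, and -0.20 in WT, R109K, and KK, with 95% intervals of -0.53 to 0.17, -0.46 to 0.23, and -0.55 to 0.15, so a decrease to the lower or an increase to the upper bound was not resolved with 3 replicates. CDK4 made up 82.0% of the summed CDK4 and CDK6 level per kb in pTRE and between 78.5% and 83.1% in the E2F1 lines, and the log2 ratio of CDK6 over CDK4 overlapped between all lines.

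The E-type cyclins, the regulatory subunits that take CDK2 across the G1 to S boundary, both rose in all 3 E2F1 lines. CCNE1 (chromosome 19, 30302898 to 30315219) was at 83.4, 83.7, and 97.7 CPM in pTRE. It was at 309, 236, and 252 in WT, at 247, 270, and 256 in R109K, and at 273, 304, and 282 in KK. The lowest E2F1 sample was more than double the highest pTRE sample. The log2 fold changes were 1.59 (SE 0.13) in WT, 1.54 (SE 0.13) in R109K, and 1.70 (SE 0.13) in KK, with edgeR adjusted p-values of 1.98e-07, 5.71e-07, and 1.08e-07. Per kb of exon, CCNE1 was 4th of the 10 members in pTRE at 35.9 ± 3.33 CPM, behind CDK4, CCNA2, and CCND1. It was 1st in WT, R109K, and KK, at 108 ± 15.5, 105 ± 4.56, and 116 ± 6.43 CPM, and by MANE Select lengths it was 5th in pTRE and 1st in the others.

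CCNE2 started from a lower level, with the largest fold change of the members in WT and R109K and one next to that of CCND3 in KK. It was at 20.3, 18.8, and 18.8 CPM in pTRE, 113, 75.6, and 83.4 in WT, 88.8, 78.0, and 74.5 in R109K, and 97.8, 68.8, and 92.7 in KK. No E2F1 sample came near the pTRE range. The log2 fold changes were 2.24 (SE 0.17), 2.06 (SE 0.16), and 2.16 (SE 0.17) in WT, R109K, and KK, with edgeR adjusted p-values of 1.07e-07, 5.14e-07, and 1.40e-07. That placed CCNE2 390th of 2464, 229th of 1666, and 361st of 2287 rising genes by size. INTS8 lies opposite to CCNE2 with 1629 shared exonic bases. It averaged 39.4 CPM in pTRE and had log2 fold changes of -0.26, -0.25, and -0.43 in WT, R109K, and KK, with edgeR adjusted p-values of 0.0861, 0.111, and 0.00825, so it fell in KK and was not called in the others.

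The E-type pool went from 40.3 ± 3.24 (SD, n = 3) CPM per kb in pTRE to 129 ± 20.0, 123 ± 3.75, and 136 ± 2.97 in WT, R109K, and KK. CCNE1 remained the larger part, at 89.0% in pTRE and 84.0%, 85.1%, and 85.5% in the E2F1 lines. The log2 ratio of CCNE2 over CCNE1 was higher than in pTRE by 0.62 in WT and 0.50 in R109K, without overlap (exact permutation p = 0.10 each, adjusted 0.30), and by 0.44 in KK, where the groups overlapped (exact permutation p = 0.20).

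The A-type cyclins were split between one expressed gene and one that was barely detected. CCNA2 (chromosome 4, 122737599 to 122745038), the somatic cyclin A of S phase and G2, was at 141, 144, and 129 CPM in pTRE. It was at 204, 150, and 180 in WT, 250, 233, and 217 in R109K, and 220, 196, and 199 in KK. All E2F1 samples lay above pTRE, WT replicate 2 closest. CCNA2 rose by a log2 fold change of 0.76 in R109K (SE 0.12, edgeR adjusted p = 3.13e-04) and 0.57 in KK (SE 0.12, adjusted p = 0.00199). In WT the log2 fold change was 0.37 (SE 0.12, edgeR adjusted p = 0.0268), and without WT replicate 2 it was 0.48 and passed at 0.00347. In KK the call was lost without pTRE replicate 3 (edgeR adjusted p = 0.0133) or KK replicate 1 (0.0135).

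Markers of proliferating cells were called in both directions in each line. Of 10 such genes, 2 rose and 1 fell in WT, 6 rose and 1 fell in R109K, and 2 rose and 2 fell in KK, where 26.2%, 17.3%, and 24.4% of all genes were called. Their summed level ranged from 3392 to 3506 CPM in pTRE and, in the E2F1 lines, spanned 4468 to 4852 (WT), 4739 to 5474 (R109K), and 4510 to 4916 CPM (KK). MKI67, a general marker of cycling cells, was a large part of that sum. It averaged 976 CPM in pTRE and 1946, 1808, and 1723 CPM in WT, R109K, and KK. On the log2 scale MKI67 rose by 1.00, 0.89, and 0.82 in these lines. MCM5, a subunit of the replicative helicase, fell by 0.91, 0.92, and 1.02. The part of cell cycle phase in the CCNA2 result was not tested.

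CCNA1 (chromosome 13, 37005657 to 37017007), the cyclin A of germ cells, had 6 reads in all 12 libraries and at most 2 in one, with 7 libraries at 0. A floor of 3 reads corresponds to 0.0972 to 0.241 CPM, depending on the library, so a level below that was not detectable at this depth. No fold change was computed.

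CDK2 (chromosome 12, 56360565 to 56366573), the kinase bound by both E-type and A-type cyclins, was at 111, 107, and 113 CPM in pTRE and 135, 142, and 133 in R109K. It was at 129, 91.2, and 121 in WT and at 124, 106, and 116 in KK. Only the R109K samples lay clear of pTRE, with a log2 fold change of 0.31 that did not pass (SE 0.13, edgeR adjusted p = 0.0809). In WT and KK the log2 fold changes were 0.05 (95% interval -0.21 to 0.32) and 0.07 (-0.20 to 0.33). Per kb of exon union, CCNE1 and CDK2 were at 35.9 and 28.3 CPM in pTRE and at 108 and 29.3 CPM in WT. By MANE Select lengths, CCNE1 was below CDK2 in pTRE (45.2 against 49.2 CPM) and above it in WT (136 against 50.9), R109K (132 against 60.8), and KK (147 against 51.5), so their order in pTRE depended on the length used.

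The second comparison asked whether the mutants of the methylated arginines differed from WT, or from each other, for these genes. None of the 9 tested members was called in any of the 3 direct comparisons by edgeR, when all 12 samples were fitted together, where 0.710% of all genes were called between R109K and WT, 0.0120% between KK and WT, and 0.132% between R109K and KK. DESeq2 likewise called 0 members in each. At an unadjusted p under 0.05, there were 2 members between R109K and WT, CDK4 and CCNA2 (22.3% of all genes), 0 between KK and WT (8.51%), and 2 between R109K and KK, CCND2 and CCND3 (12.4%). The intervals of the differences remained within 1 log2 unit on either side for every tested member.

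**Figure D4:**
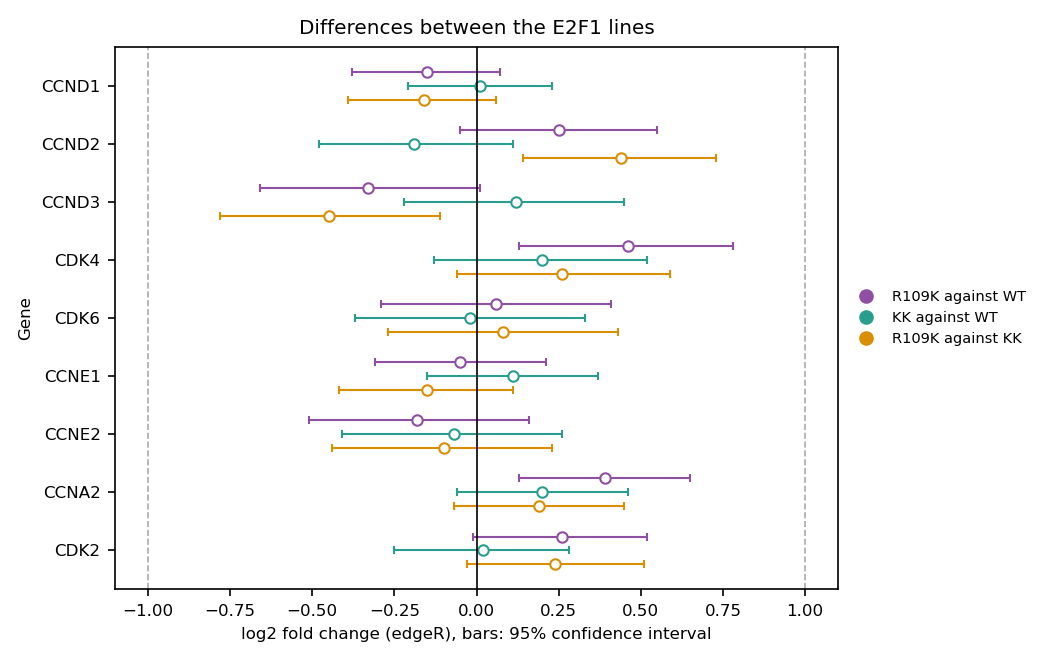
log2 fold change of the 9 tested members between the E2F1 lines, with 95% confidence intervals from edgeR. Open points mark that no difference passed an adjusted p of 0.01 in the fit of all 12 samples, and dashed lines mark 2-fold. R109K lies above WT for CDK4 and CCNA2, and above KK for CCND2 and below it for CCND3, in intervals that exclude 0 before adjustment.

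R109K and WT did not overlap for CDK4, CCNA2, and CDK2, 3 of 9 members where 27.1% of all genes did not overlap. R109K was higher by a log2 fold change of 0.46 for CDK4 (95% interval 0.13 to 0.78, edgeR adjusted p = 0.106), 0.39 for CCNA2 (0.13 to 0.65, adjusted p = 0.0916), and 0.26 for CDK2 (-0.01 to 0.52, adjusted p = 0.241). WT replicate 2, the library with the fewest reads on genes, was the lowest WT sample for every tested member except CCND2 and CDK6. Its part in the differences was not tested beyond leaving it out. Without it the differences were 0.28, 0.28, and 0.12.

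R109K and KK did not overlap for CCND1, CCND2, CCND3, CCNE1, and CDK2, 5 of 9 members against 21.0% of all genes. CCND2 exceeded its KK level in R109K, at a log2 fold change of 0.44 (95% interval 0.14 to 0.73, edgeR adjusted p = 0.160), and CCND3 was below it, at -0.45 (-0.78 to -0.11, adjusted p = 0.209). The differences for CCND1, CCNE1, and CDK2 were -0.16, -0.15, and 0.24, with edgeR adjusted p-values of 0.593, 0.705, and 0.474. Same-numbered R109K and KK samples deviated together, at correlations of 0.294 to 0.470, though differently numbered WT and KK samples also reached 0.314. A fit of the 6 R109K and KK samples with replicate number as a block was added after the data had been seen. Since the pairing was picked from these same counts, the p-values of this fit are a description. The fit called 3 members, where 11.5% of all genes were called. CCND2 was higher in R109K (log2 fold change 0.44, SE 0.06, edgeR adjusted p = 4.27e-05), CCND3 was lower (-0.45, SE 0.06, adjusted p = 3.13e-05), and CDK4 was higher (0.26, SE 0.06, adjusted p = 0.00344). CDK2, CCNA2, CCND1, and CCNE1 did not pass, at edgeR adjusted p-values of 0.0132, 0.0281, 0.0574, and 0.0626. The same 6 samples without the block gave 0 called members, and whether R109K and KK differ for these genes therefore rests on the pairing, which no label states.

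KK and WT overlapped for all 9 tested members (9.97% of all genes did not), with log2 fold changes between -0.19 for CCND2 and 0.20 for CCNA2 and CDK4. For CCNE1, the interval of the difference was -0.31 to 0.21 between R109K and WT and -0.15 to 0.37 between KK and WT. For CCNE2, it was -0.51 to 0.16 and -0.41 to 0.26.

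The genes most like a regulated member across the 12 samples were ranked by Pearson correlation of log2 CPM, as a description, since the samples share lines and libraries. For CCND3 they were CA2 (r = 0.997), TNFAIP8L3 (0.994), and WRAP73 (0.994). For CCNE1 they were OLFM1 (0.996), DCLK3 (0.994), and RRM2 (0.992), and for CCNE2 they were SLC16A1 (0.994), EPS8 (0.994), and RRM2 (0.993). RRM2, a subunit of ribonucleotide reductase, averaged 418 CPM in pTRE and 2154, 2033, and 2197 CPM in WT, R109K, and KK. Among the members, CCND3 and CCNE1 had r = 0.99 and CCNE1 and CCNE2 had r = 0.98 over the 12 samples, CCND1 and CCNE1 had -0.89, and CCNA2 was closest to CCNE2 (0.82) among the cyclins and at 0.74 with CDK2.

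Most tested inhibitors of the same kinases rose in each E2F1 line. Of 7, 5 were tested, and all 5 rose in WT and KK and 4 of 5 in R109K, beside 14.8%, 13.8%, and 10.0% of all genes. CDKN2C, which encodes p18 and inhibits CDK4 and CDK6, went from an average of 43.2 CPM in pTRE to 167, 175, and 191 in WT, R109K, and KK. Its log2 fold changes were 1.95, 2.02, and 2.14 (SE 0.17 each, edgeR adjusted p = 4.89e-07, 7.11e-07, and 1.86e-07). CDKN2D (p19) rose by 1.05, 1.42, and 1.24 and CDKN1B (p27) by 0.88, 1.05, and 0.94 on the log2 scale. CDKN1C (p57) rose by 1.87 in WT and 1.78 in KK, and had a log2 fold change of 0.97 in R109K at an edgeR adjusted p of 0.0106. CDKN1A (p21) rose by 0.67, 0.68, and 0.76. CDKN2A and CDKN2B were at or near 0 in every line. The median log2 fold change of the inhibitors was 1.05, 1.05, and 1.24, against 0.00, -0.00, and -0.01 over all genes.

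Other cyclins and CDKs were called in both directions, beside 26.2% of all genes called in WT, 17.3% in R109K, and 24.4% in KK. Of 19 other cyclins tested, 4 rose and 2 fell in WT, 2 rose and 1 fell in R109K, and 3 rose and 3 fell in KK. CCNF, the substrate receptor of an SCF ubiquitin ligase, rose by 1.20, 1.11, and 1.13 on the log2 scale, and CCNO rose by 1.43, 1.31, and 1.58. Of 17 other CDKs tested, 1 rose and 3 fell in WT, 2 rose and 2 fell in R109K, and 1 rose and 2 fell in KK. CDK19, a kinase of the Mediator complex, rose by 1.20, 0.69, and 0.89, and CDK15 fell by 1.50, 1.94, and 2.07 from a low level of 2.01 CPM in pTRE.

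Of 9 genes that activate or phosphorylate CDKs, 3 rose in WT, 2 in R109K, and 3 in KK, and none fell, beside 14.8%, 10.0%, and 13.8% of all genes that rose. CDC25A, the phosphatase that removes inhibitory phosphates from CDK2, rose by 1.00, 0.74, and 0.92 on the log2 scale, and WEE1, the kinase that adds them, had log2 fold changes of 0.11, 0.19, and -0.04. Of 10 genes of cyclin turnover, 1 rose and 1 fell in each line, beside 26.2%, 17.3%, and 24.4% of all genes called in WT, R109K, and KK. SKP2, the F-box protein that targets p27, rose by 1.07, 1.25, and 1.19, and CUL1, the scaffold of the same ligase, fell by 0.94, 0.81, and 0.87. Of 13 pocket protein and E2F genes, 5 rose and 1 fell in WT, and 4 rose and 1 fell in R109K and in KK. Of all genes, 26.2%, 17.3%, and 24.4% were called in WT, R109K, and KK. The counts of rising genes include E2F1, the gene introduced in these lines. E2F7 and E2F8, repressors of E2F targets, rose by 1.63, 1.29, and 1.32 and by 1.08, 1.04, and 0.94. E2F5 fell by 0.75, 1.08, and 0.85.

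Reads of overlapping genes could be mixed, or set aside as ambiguous, at other members too. Ambiguous reads made up 0.866% to 2.16% of all reads of a library. CCNA2 shares 254 exonic bases with EXOSC9 on the opposite strand, which had log2 fold changes of 0.33, 0.44, and 0.58 in WT, R109K, and KK, the last of them called (edgeR adjusted p = 0.00791). CDK2 shares 89 with PMEL, which had at most 42 reads in a library, and 565 with ENSG00000258554, not found by name among the counted genes. CCND1 shares 497 with LTO1 and CCND2 shares 999 with ENSG00000285901 on the same strand, neither of which was found by name among the counted genes.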

How the data were processed

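The authors deposited raw read counts, 1 set per sample, for 25369 gene symbols. The authors trimmed reads with Trim Galore 0.4.3, aligned them to hg19 with STAR 2.5.1, and took counts from the aligner. The annotation and the strand setting are not given in the sources used here, and the library kit was directional. Lines of reads outside genes, ambiguous, or not unique were left out of library sizes, and 31.2% to 65.7% of reads were on genes.

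The test was the quasi-likelihood test of edgeR 4.0.16 (R 4.3.3). filterByExpr left 16625 genes, TMM gave the scaling, and all 12 samples entered 1 model with the line as its factor. The common dispersion was 0.0239. Benjamini-Hochberg adjustment ran over all genes tested. Thresholds were an adjusted p of 0.01 and 2-fold. DESeq2 1.42.0 was an alternative. log2 CPM used a prior count of 2. The test was checked on simulated data. Lengths, positions, and overlaps come from GENCODE for GRCh37, and promoters from RefSeq, each matched once to GRCh37. Named are the members, E2F1, overlapping genes, genes of the related lists regulated in at least 1 line, and the 3 genes (mean count at least 50) nearest to each regulated member. CDC25A, WEE1, CUL1, CDKN1A, CDKN2A, CDKN2B, MKI67, and the cell type markers were named after their values were seen. Members and lists were chosen with earlier results of these data known. The study describes the replicates of each line as independent biological samples. Replicate numbers were checked by correlating deviations from line means. All 3 same-numbered pairs correlated between R109K and KK (0.294 to 0.470), and in no other pair of lines did all 3 pass 0.1. Numbers were thus taken to pair R109K with KK samples only, from the data and not from a label. Differently numbered samples reached 0.0370 between R109K and KK, but 0.314 between WT and KK and 0.278 between WT and R109K. A correlation near the lowest of the 3 thus also arose without a shared number.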

Additional observations from a re-analysis of the deposited data

How the results depend on the processing

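In WT, 4 members were called at an adjusted p of 0.01 and 7 at 0.05, CCND2, CDK4, and CCNA2 being added. Of all genes, 26.2% were called in WT at 0.01, and the share at 0.05 is not given here. The count of 7 thus has no share of all genes beside it, and the part of the looser threshold in it was not tested. Leaving out each replicate gave 3 to 5 called members in WT, 5 to 5 in R109K, and 4 to 6 in KK, with 3 over 2-fold in every case, and 0 in the direct comparisons. The number over 2-fold was also 3 in each line with DESeq2, RLE normalization, either other filter, 6 samples only, and a test against 2-fold. For the direct differences between E2F1 lines, signs were not compared for every member. Against pTRE, the log2 fold changes that changed sign were not called in either fit. They were CDK6 in R109K (0.05 without pTRE replicate 2), CDK2 in WT (-0.06 without WT replicate 1 and -0.01 without WT replicate 3), and CDK4 in R109K (-0.08 without R109K replicate 2), each from fewer samples. Over the replicates left out, these ran from -0.24 to 0.05, -0.06 to 0.19, and -0.08 to 0.06. RLE moved the median of all genes by at most 0.01. With replicate number as a block in the fit of all 12 samples, 4, 5, and 6 members were called in WT, R109K, and KK, as without it, and 0 in the direct comparisons. A block on the 6 R109K and KK samples alone, where numbers were taken to pair samples, called 3 members between them in place of 0. Sign flips within numbers gave an exact p of 0.25 for the balance of CCND3 over CCND1, the smallest they allow. CCNA1 did not pass the filter on low counts. WT replicate 2, with the fewest reads on genes, was the lowest WT sample for every tested member except CCND2 and CDK6.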
